A study of Mus musculus with 8 samples.

Results

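Enteroendocrine cells were followed in the distal colon of mice through 8 genes that encode their hormones, their serotonin-making enzyme, their granule proteins and a transcription factor. The genes were chosen by symbol (*Gcg*, *Pyy*, *Insl5*, *Tph1*, *Chga*, *Chgb*, *Scg5* and *Neurod1*), and all 8 were found among the 15859 genes counted. RNA-seq was performed on the distal colon of 8 male mice on a BALB/c x 129SvEV background, 2 in each of the 4 groups of the study. WT mice and mice null for *Hsf1*, which lack heat shock factor 1 in all cells of the body, were either left untreated (day 0) or treated with AOM-DSS (day 15). Treated mice received 10 mg/kg of the carcinogen azoxymethane (AOM) at 8 weeks of age, and drank 1.5% dextran sulfate sodium (DSS), an agent that damages the epithelial lining of the colon, for 5 days from day 7. The labels give the age of every mouse as 10 weeks and describe collection directly after DSS, whereas titles and methods place the treated mice at day 15, the name used here.

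Enteroendocrine cells are rare hormone-secreting cells scattered among the absorptive and goblet cells of the gut epithelium. In the distal colon, L cells make glucagon-like peptides, peptide YY and INSL5, and enterochromaffin cells make serotonin. Both store their products in dense-core granules, release them in response to luminal nutrients, microbial metabolites and stretch, and are renewed from crypt stem cells under transcription factors such as NEUROG3 and NEUROD1.

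Total counts were between 2553348 and 12440257 per mouse, and replicate 2 of both day 0 groups had the smallest libraries. Levels are given in CPM, counts scaled to the TMM-adjusted library size of each mouse. *Hsf1*, which the null allele disrupts, was at 40.5 and 36.5 CPM in WT animals and 14.0 and 11.9 CPM in *Hsf1* null animals at day 0. By day 15 the level was 50.4 and 45.9 CPM in WT animals and 13.5 and 9.09 CPM in *Hsf1* null animals, with no overlap between the genotypes at either day. Of 14371 genes with a mean normalised count above 5, genes were called where edgeR's quasi-likelihood test gave a Benjamini-Hochberg adjusted p under 0.05 and the log2 fold change was above 1 or below -1. All 8 enteroendocrine genes passed the filter on the mean count. *Hsf1* itself was called between the genotypes at day 15 (log2 fold change 2.10, adjusted p = 0.0137) but not at day 0 (1.57, adjusted p = 0.775). DESeq2, tried as an alternative, gave 1.55 at day 0 (adjusted p = 0.0333). Expression was measured in whole tissue, where fewer cells of a type and less RNA per cell cannot be told apart.

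Positions were taken from GENCODE M21 (GRCm38, mm10), and all 8 genes are protein coding. The hormone genes *Gcg* (chr2:62474530-62483650), *Pyy* (chr11:102106676-102107832) and *Insl5* (chr4:103017872-103026842) lie on the minus strand, as do *Tph1* (chr7:46644641-46672537), *Scg5* (chr2:113776362-113829121) and *Neurod1* (chr2:79452521-79456751). *Chga* (chr12:102554969-102565028) and *Chgb* (chr2:132781278-132795079) lie on the plus strand. *Hsf1* lies on chromosome 15, which holds none of the 8. *Neurod1* lies in full within the locus of *Cerkl* on the same strand, which is also in the count table, so that reads of *Neurod1* and *Cerkl* may have been assigned to either.

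Promoter sequences, from RefSeq on GRCm38.p6, are shown for *Gcg* and *Insl5*, where a NEUROD1-type E-box was found, and for *Pyy* and *Scg5*, the hormone and granule genes with the largest differences between groups besides *Insl5*. Only bases upstream of both the RefSeq and the GENCODE start are printed. They are chr2:62483654-62483903 for *Gcg*, chr11:102107833-102108082 for *Pyy*, chr4:103026843-103026978 for *Insl5* and chr2:113829122-113829341 for *Scg5*, each read 5′ to 3′ on the minus strand. Capitals mark CAGATG, an E-box to which NEUROD1 is known to bind, and TTCNNGAA, which joins a pair of the units recognised by heat shock factors. Both were searched on both strands, together with GAANNTTC.
Gcg: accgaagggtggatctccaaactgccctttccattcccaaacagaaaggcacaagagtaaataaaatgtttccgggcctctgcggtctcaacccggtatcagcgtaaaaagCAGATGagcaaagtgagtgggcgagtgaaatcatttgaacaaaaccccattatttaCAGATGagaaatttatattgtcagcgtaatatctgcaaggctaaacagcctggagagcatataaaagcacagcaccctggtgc
Pyy: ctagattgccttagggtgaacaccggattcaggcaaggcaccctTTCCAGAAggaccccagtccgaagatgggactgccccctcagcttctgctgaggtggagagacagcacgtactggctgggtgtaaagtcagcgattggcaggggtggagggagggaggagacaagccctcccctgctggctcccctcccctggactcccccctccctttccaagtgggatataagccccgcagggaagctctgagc
Insl5: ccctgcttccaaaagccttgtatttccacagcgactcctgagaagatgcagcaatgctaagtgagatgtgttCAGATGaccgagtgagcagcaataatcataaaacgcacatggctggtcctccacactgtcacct
Scg5: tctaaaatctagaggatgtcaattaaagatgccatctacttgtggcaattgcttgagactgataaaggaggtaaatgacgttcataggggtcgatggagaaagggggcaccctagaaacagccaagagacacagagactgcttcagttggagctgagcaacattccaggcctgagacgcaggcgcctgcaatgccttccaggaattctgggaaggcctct

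The *Gcg* promoter held CAGATG 139 and 83 bases before the RefSeq start, and the *Insl5* promoter held it 178 bases before the start. The other 6 genes held no CAGATG in a window of 300 bases around the start, a motif found in 17.2% of 32851 such RefSeq windows. TTCNNGAA was found in *Pyy*, 206 bases before the start, and in 8.52% of all windows. GAANNTTC was found in the window of *Neurod1* alone among the 8 genes and in 7.86% of all windows.

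Per kilobase of exon sequence, *Pyy* was the most abundant of the 8 genes with a mean of 621 CPM per kb over all mice, followed by *Insl5* (166), *Gcg* (47.7), *Chgb* (35.1), *Chga* (19.2), *Scg5* (9.94), *Tph1* (2.68) and *Neurod1* (0.806). Within each mouse this order was nearly constant. Each gene was above the next in all 8 mice, except that *Gcg* was above *Chgb* and *Chga* above *Scg5* in 7 of 8. Over mice, the ranges of neighbouring genes overlapped for every pair down to *Chga* and *Scg5*, while *Tph1* (1.71 to 3.41 CPM per kb) lay below all values of *Scg5* and above all values of *Neurod1*. The highest mouse exceeded the lowest 7.40-fold for *Insl5*, 3.92-fold for *Scg5*, 3.75-fold for *Pyy*, 3.67-fold for *Neurod1* and 3.44-fold for *Chga*. *Gcg*, *Chgb* and *Tph1* varied least, at most 2.08-fold.

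**Figure D1:**
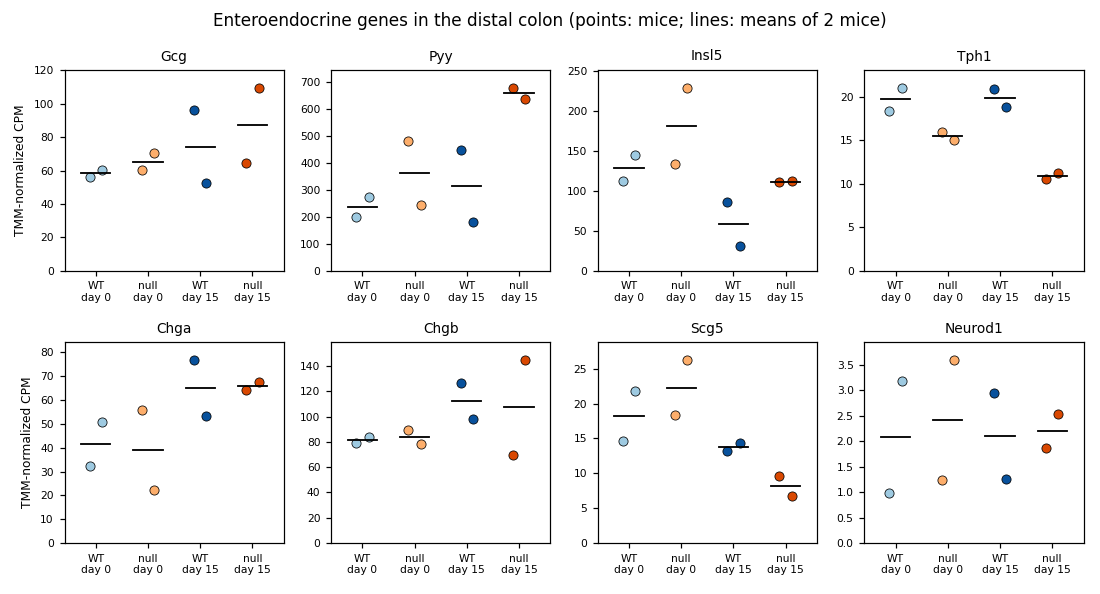
Levels of the 8 enteroendocrine genes in each mouse, in TMM-normalized CPM on linear axes that start at 0, for both genotypes at day 0 and day 15. Points are mice and lines are the means of 2 mice: both *Hsf1* null mice at day 15 had the highest *Pyy* and the lowest *Tph1* and *Scg5* levels of all 8 mice.

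*Gcg* encodes preproglucagon, which L cells process to GLP-1 and GLP-2. It was at 56.2 and 60.3 CPM in WT animals and 60.1 and 70.8 CPM in *Hsf1* null animals at day 0, and at 96.2 and 52.6 CPM in WT animals and 64.8 and 109.5 CPM in *Hsf1* null animals at day 15. The mice of each group were close at day 0 and up to 1.83-fold apart at day 15. Genotypes and days overlapped in every comparison, and *Gcg* was not called in any.

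*Pyy* encodes peptide YY, which slows gut transit and fluid secretion. Its level at day 0 was 198 and 272 CPM in WT animals and 479 and 243 CPM in *Hsf1* null animals. By day 15 the level was 448 and 180 CPM in WT animals and 677 and 637 CPM in *Hsf1* null animals. The genotypes overlapped at day 0, whereas at day 15 both WT mice were below both *Hsf1* null mice, and the WT mice differed 2.48-fold from each other. The log2 fold change between the genotypes at day 15 was -1.06 (SE 0.44, adjusted p = 0.187), and *Pyy* was not called. It was -1.86 (adjusted p = 0.0696) without replicate 1 of WT day 15 and -0.55 (adjusted p = 0.629) without replicate 2. Within *Hsf1* null mice it was higher at day 15 than at day 0 in both mice, with a log2 fold change of 0.86 (SE 0.44, adjusted p = 0.206) that was 1.43 and 0.45 without replicates 1 and 2 of *Hsf1* null day 0.

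*Insl5* encodes an insulin-like peptide that is largely confined to L cells of the distal colon. It was at 112 and 145 CPM in WT animals and 133 and 229 CPM in *Hsf1* null animals at day 0. By day 15 the level was 86.2 and 30.9 CPM in WT animals and 111 and 112 CPM in *Hsf1* null animals. Thus *Insl5* was lower at day 15 in both genotypes without overlap between days, and replicate 2 of WT day 15 had the lowest level of all mice. The log2 fold change from day 0 to day 15 was -1.13 in WT mice (SE 0.43, adjusted p = 0.128) and -0.69 in *Hsf1* null mice (SE 0.43, adjusted p = 0.293). As the mean of both genotypes it was -0.91 (SE 0.31, adjusted p = 0.0477), with an absolute log2 fold change under the threshold of 1, so that *Insl5* was not called. In the fit without replicate 1 of WT day 15, *Insl5* was called, at -2.05 in WT mice (adjusted p = 0.0243) and -1.37 as the mean of both genotypes (adjusted p = 0.00725). Without replicate 1 of *Hsf1* null day 0 the mean of both genotypes was also called, at -1.08 (adjusted p = 0.0466). The fits that left out a mouse ranged from -2.05 to -0.57 in WT mice, -1.04 to -0.25 in *Hsf1* null mice and -1.37 to -0.63 as the mean of both. Without replicate 2 of WT day 15, *Insl5* was at -0.57 in WT mice (adjusted p = 0.475) and -0.63 as the mean of both (adjusted p = 0.0932), and without replicate 2 of *Hsf1* null day 0 it was at -0.25 in *Hsf1* null mice (adjusted p = 0.834).

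*Insl5* and *Pyy*, both products of L cells, had opposite signs from day 0 to day 15 as the mean of both genotypes, where *Pyy* had a log2 fold change of 0.64 (SE 0.31, adjusted p = 0.143; 0.24 to 0.93 with a mouse left out). Both were lower in WT than in the *Hsf1* null mice at day 15 in every mouse, where *Insl5* had a log2 fold change of -0.93 (SE 0.43, adjusted p = 0.229), which was -1.85 (adjusted p = 0.0498) without replicate 1 of WT day 15 and -0.37 (adjusted p = 0.713) without replicate 2. Across the 8 mice, Pearson's r of log2 CPM between *Pyy* and *Insl5* was 0.24 (Spearman's rho 0.10), and between *Chgb* and *Gcg*, the highest of the 28 pairs, it was 0.78 (rho 0.26). These values are a description, since mice of 4 groups share libraries and tissue composition for all genes.

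*Tph1* encodes the rate-limiting enzyme of serotonin synthesis in enterochromaffin cells. It was at 18.4 and 21.0 CPM in WT animals and 16.0 and 15.1 CPM in *Hsf1* null animals at day 0, and at 21.0 and 18.9 CPM in WT animals and 10.5 and 11.2 CPM in *Hsf1* null animals at day 15. The mice of a group were within 1.14-fold of each other, and both WT mice were above both *Hsf1* null mice at each day. The log2 fold change between WT and *Hsf1* null mice was 0.87 at day 15 (SE 0.30, adjusted p = 0.122) and 0.33 at day 0 (SE 0.30, adjusted p = 0.870). Within *Hsf1* null mice the log2 fold change from day 0 to day 15 was -0.52 (SE 0.30, adjusted p = 0.264), without overlap between days. Mast cells of mice can also make serotonin with *Tph1*. Summed over 9 mast cell markers, the level was 21.6 to 40.9 CPM at day 0 and 129 to 146 CPM at day 15. As the mean of both genotypes 5 of the 6 markers tested rose, where 8.04% of all genes were called higher. That count was lower in most fits that left out a mouse. In WT mice, whose mast cell markers also differed between days (38.4 and 40.9 CPM at day 0, 146 and 135 CPM at day 15), *Tph1* overlapped between days. The part of mast cells in the level of *Tph1* was not tested.

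*Chga* and *Chgb* encode chromogranins A and B, acidic proteins of the granule core. *Chga* was at 32.2 and 50.8 CPM in WT animals and 55.8 and 22.3 CPM in *Hsf1* null animals at day 0, and at 76.7 and 53.1 CPM in WT animals and 64.2 and 67.6 CPM in *Hsf1* null animals at day 15. Both genotypes were higher at day 15 without overlap between days, but the mice at day 0 differed up to 2.51-fold within a group. The log2 fold change from day 0 to day 15 was 0.66 in WT mice (SE 0.41, adjusted p = 0.320), 0.72 in *Hsf1* null mice (SE 0.40, adjusted p = 0.245) and 0.69 as the mean of both genotypes (SE 0.29, adjusted p = 0.0927). Among the alternatives tried, *Chga* was called only without replicate 1 of *Hsf1* null day 0, at 1.56 in *Hsf1* null mice (adjusted p = 0.0452) and 1.11 as the mean of both genotypes (adjusted p = 0.0182). Without replicate 2 of the same group it was at 0.24 (adjusted p = 0.771) and 0.45 (adjusted p = 0.219).

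*Chgb* was at 79.3 and 83.7 CPM in WT animals and 89.4 and 78.7 CPM in *Hsf1* null animals at day 0, and at 126.5 and 97.7 CPM in WT animals and 69.8 and 144.5 CPM in *Hsf1* null animals at day 15. The 4 mice at day 0 lay within a narrow range, and the *Hsf1* null mice at day 15 held both the lowest and the highest level of all 8. In WT mice the log2 fold change from day 0 to day 15 was 0.46 (SE 0.33, adjusted p = 0.386), without overlap between days.

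*Scg5* encodes 7B2, a chaperone of the prohormone convertase PC2. It was at 14.6 and 21.8 CPM in WT animals and 18.4 and 26.2 CPM in *Hsf1* null animals at day 0 (149, 55, 224 and 73 counts). By day 15 the level was 13.1 and 14.4 CPM in WT animals and 9.61 and 6.68 CPM in *Hsf1* null animals (151, 136, 62 and 50 counts). All 4 mice at day 15 were below all 4 mice at day 0, and the *Hsf1* null mice at day 15 were the lowest. *Scg5* fell in *Hsf1* null mice, with a log2 fold change of -1.44 (SE 0.37, adjusted p = 0.0366), the only called difference among the 8 genes. In WT mice the log2 fold change was -0.38 (SE 0.36, adjusted p = 0.526), and as the mean of both genotypes it was -0.91 (SE 0.26, adjusted p = 0.0272), with an absolute log2 fold change under the threshold. Without replicate 1 of WT day 0, *Hsf1* null day 0 or *Hsf1* null day 15 the latter was called, at -1.05, -1.04 and -1.05.

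The change of *Scg5* was not shown to differ between the genotypes, since the difference of the log2 fold changes (WT minus *Hsf1* null) was 1.05 (SE 0.52, adjusted p = 0.613, unadjusted p = 0.07 in the same edgeR fit). Between the genotypes at day 15, *Scg5* had a log2 fold change of 0.76 (SE 0.37, adjusted p = 0.248), without overlap. The call in *Hsf1* null mice was lost without replicate 2 of *Hsf1* null day 0 (-1.18, adjusted p = 0.231), replicate 1 of *Hsf1* null day 15 (-1.71, adjusted p = 0.0738) or replicate 2 of *Hsf1* null day 15 (-1.20, adjusted p = 0.127), and was kept in the other 5 fits that left out a mouse. It was also lost after thinning to the smallest library (-1.20, adjusted p = 0.0776) and in a fit of the 4 *Hsf1* null mice alone (-1.45, adjusted p = 0.0506). *Scg5* is expressed in neurons as well as endocrine cells. The summed level of 17 enteric neuron markers was 204 to 231 CPM in *Hsf1* null animals at day 0 and 279 to 402 CPM at day 15. Of the 16 tested 9 had a higher and 7 a lower level at day 15 (*Uchl1* and *Prph* rose and 0 fell, where 5.3% of all genes were called higher and 6.48% lower). Both calls were lost without replicate 2 of *Hsf1* null day 0 or replicate 1 of *Hsf1* null day 15. The part of neurons in the change of *Scg5* was not tested.

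*Neurod1*, a transcription factor of enteroendocrine differentiation, had between 8 and 34 counts per mouse. It was at 0.980 and 3.17 CPM in WT animals and 1.23 and 3.59 CPM in *Hsf1* null animals at day 0, and at 2.96 and 1.27 CPM in WT animals and 1.86 and 2.54 CPM in *Hsf1* null animals at day 15. The mice within a group differed up to 3.24-fold, the groups overlapped in every comparison, and no difference was detectable at this depth.

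Counted over the 8 genes, 0 were called between the genotypes at day 15 with edgeR or DESeq2, where 3.17% of all tested genes were called (1.25% higher and 1.91% lower in WT mice), and 2 (*Pyy* and *Tph1*) had an unadjusted p under 0.05, as had 23.2% of all genes. In 4 of the 8 (*Pyy*, *Insl5*, *Tph1* and *Scg5*) the genotypes did not overlap, as in 54.8% of all genes. The median log2 fold change of the 8 was -0.04 and that of all tested genes 0.04. At day 0, 0 of the 8 were called by either tool and 0 had an unadjusted p under 0.05, with 0% of all genes called by edgeR, 18 genes called by DESeq2 and 904 (6.29%) at an unadjusted p under 0.05. *Tph1* alone did not overlap, as did 37.1% of all genes.

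From day 0 to day 15, 0 of the 8 genes were called in WT mice with edgeR or DESeq2, against 7.74% of all genes (3.47% higher and 4.27% lower at day 15), and 1 (*Insl5*) had an unadjusted p under 0.05, against 27.6% of all genes. The days did not overlap for *Insl5*, *Chga*, *Chgb* and *Scg5*, 4 of 8, as for 62.5% of all genes. In *Hsf1* null mice, 1 of the 8 (*Scg5*) was called, against 11.8% of all genes (5.3% higher and 6.48% lower at day 15). It was also the only one with an unadjusted p under 0.05, against 32.6% of all genes, and the days did not overlap for 5 of 8 and for 61.3% of all genes. Averaged over both genotypes, 0 of 8 were called with either tool, against 16.4% of all genes (8.04% higher and 8.32% lower), and 3 (*Chga*, *Insl5* and *Scg5*) had an unadjusted p under 0.05, against 43% of all genes. *Scg5* alone did not overlap between the 4 mice of each day, as did 26.3% of all genes. In the difference between genotypes in the change over days, 0 of 8 were called by either tool and 0 had an unadjusted p under 0.05, against 8.61% of all genes, and edgeR called 0.00696% of all genes (1 gene) and DESeq2 130 genes. The shares of the 8 genes were thus near or under those of all genes.

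**Figure D2:**
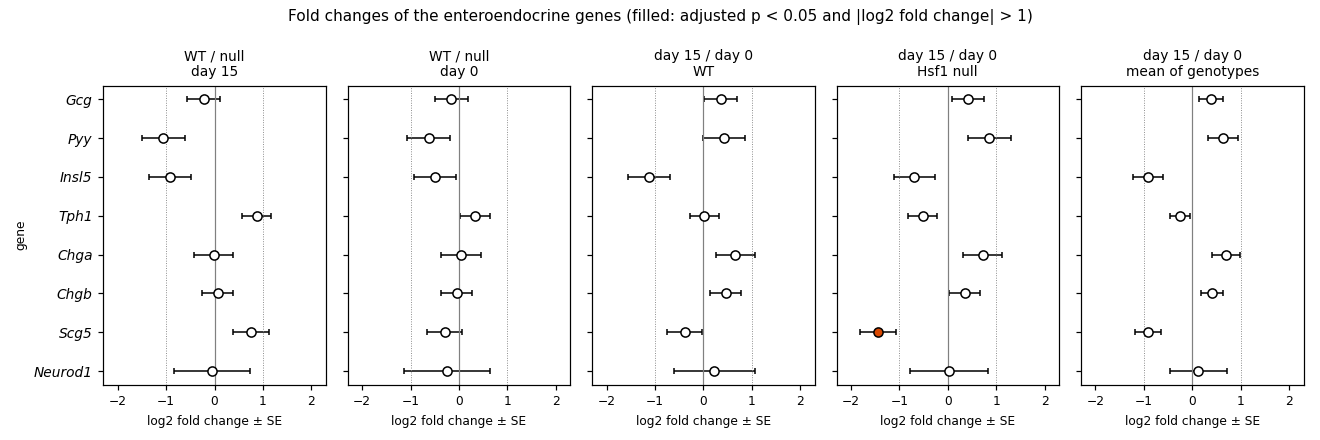
Log2 fold changes of the 8 genes in 5 comparisons, with horizontal bars for the SE of edgeR's fit, dotted lines at -1 and 1 and a filled point where the gene was called. The only filled point is *Scg5* between days in *Hsf1* null mice, at -1.44.

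Enteroendocrine cells are part of the epithelium, and the level of epithelial RNA differed between these samples. Summed over 13 epithelial markers, led by *Krt19*, *Krt8* and *Epcam*, the level was 12100 to 19800 CPM at day 0, 17530 and 18500 CPM in WT animals and 27990 and 23810 CPM in *Hsf1* null animals at day 15. Both *Hsf1* null mice at day 15 were thus above every other mouse. As a share of this epithelial sum, *Pyy* was 2.42% and 2.68% in *Hsf1* null mice and 2.56% and 0.975% in the WT mice at day 15, so that the genotypes overlapped. Scaling to this sum moved all genes in this comparison, whose median log2 fold change was 0.55 with it and 0.04 without it. The part of epithelium in the difference of *Pyy* was not tested. *Insl5* was 0.673% to 1.72% of the sum at day 0 and 0.167% to 0.492% at day 15, without overlap between the 4 mice of each day, which did overlap in CPM. *Scg5* was 0.0928% to 0.197% at day 0, 0.0749% and 0.0776% in the WT mice at day 15 and 0.0343% and 0.0281% in the *Hsf1* null mice at day 15. With libraries scaled to the epithelial sum, 2 of the 8 genes were called in *Hsf1* null mice, *Insl5* (-1.45, adjusted p = 0.0370) and *Scg5* (-2.19, adjusted p = 0.00982). Both were also called as the mean of both genotypes (-1.43, adjusted p = 0.0036, and -1.43, adjusted p = 0.0068). That scaling shifted all genes, whose median was at -0.61 and -0.48 on the log2 scale in these comparisons (0.05 and 0.02 without it). Relative to the median of all genes, *Insl5* was at -0.84 in *Hsf1* null mice and -0.94 as the mean of both genotypes (-0.74 and -0.93 without the scaling), and *Scg5* at -1.57 and -0.95 (-1.49 and -0.93). Relative to that median, *Insl5* did not pass a log2 fold change of -1 in either comparison. *Scg5* passed it in *Hsf1* null mice but not as the mean of both genotypes.

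Other marker lists also differed between groups. Goblet cell markers were at 18560 to 26910 CPM at day 0, at 7013 and 9186 CPM in WT animals at day 15 and at 39000 and 18820 CPM in *Hsf1* null animals at day 15, and absorptive cell markers were lowest in the WT mice at day 15 with 865 and 2147 CPM. Distal *Hox* genes, which mark position along the colon, were at 548 to 812 CPM at day 0 and 148 to 519 CPM at day 15. Of 6 tested, 4 fell as the mean of both genotypes, where 8.32% of all genes were called lower. Smooth muscle markers were at 7395 to 10350 CPM at day 0 and 2304 to 6364 CPM at day 15. Leukocyte markers were at 270 to 894 CPM at day 0 and 232 to 2181 CPM at day 15. Over both genotypes, 4 of 9 goblet cell, 4 of 8 absorptive cell and 7 of 9 smooth muscle markers fell and 0 rose, against 8.32% of all genes called lower. Of 9 leukocyte markers 5 rose and 0 fell, against 8.04% of all genes called higher. Of 16 enteric neuron markers 3 (*Uchl1*, *Ret* and *Prph*) rose and 1 (*Elavl4*) fell. These counts rested in part on single mice. With each mouse left out in turn, 1 to 4 goblet cell markers fell (1 without replicate 2 of WT day 0, WT day 15 or *Hsf1* null day 15, 2 without replicate 1 of *Hsf1* null day 0), 2 to 5 absorptive cell markers (2 without either *Hsf1* null mouse of day 0 or replicate 1 of WT day 15) and 3 to 7 smooth muscle markers (3 without replicate 2 of either WT group, 4 without replicate 2 of *Hsf1* null day 0). Leukocyte markers that rose numbered 3 to 7 (3 without replicate 2 of either *Hsf1* null group) and neuron markers that rose 1 to 4 (1 without replicate 1 of WT day 15), and *Elavl4* kept its call without replicate 1 of WT day 0 or *Hsf1* null day 15 only. Of the remaining lists, 0 tuft cell, 0 fibroblast and 0 general epithelial markers were called, *Foxd3* and *Erbb3* fell among glial markers, *Top2a* rose and *Lgr5* fell among stem and cycling markers, and *Cyp2c55* fell among markers of the proximal colon. Over the same 8 fits, 0 to 1 tuft cell, 0 to 2 fibroblast and 0 to 3 general epithelial markers were called higher and 2 fibroblast markers were called lower without replicate 2 of *Hsf1* null day 15, the 2 glial calls became 0 in 5 fits (without replicate 2 of any group or replicate 1 of *Hsf1* null day 0) and 1 without replicate 1 of WT day 0, and 0 stem and cycling markers rose without replicate 2 of *Hsf1* null day 15. The lowest distal *Hox* sum was that of replicate 2 of WT day 15, which also had the lowest *Insl5* and *Pyy* levels. The part of tissue composition and of position along the colon in the levels of the 8 genes was not tested.

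**Figure D3:**
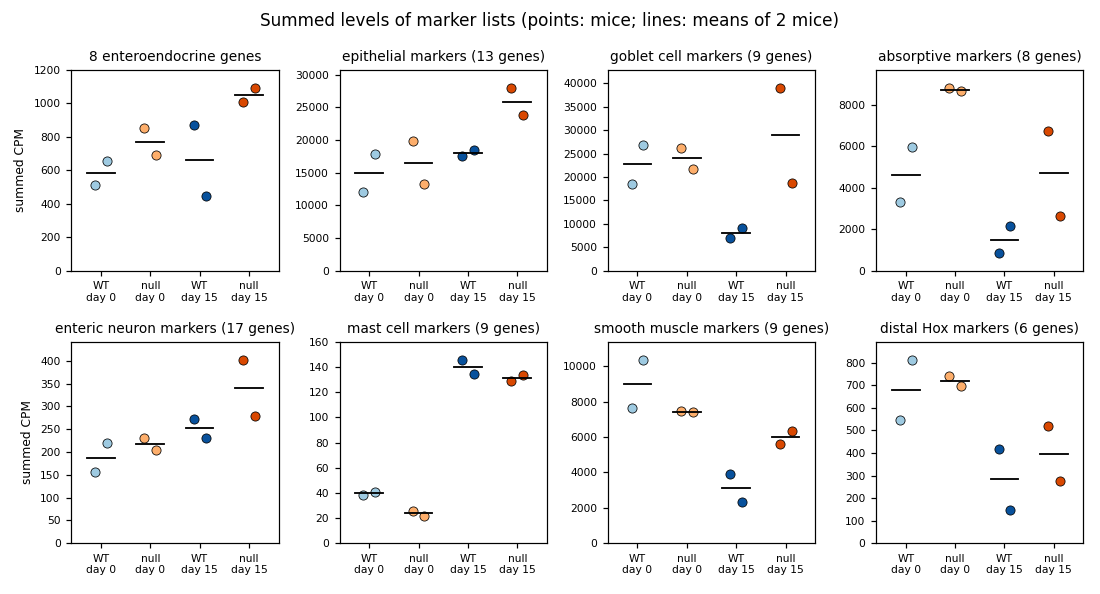
Summed levels of the 8 enteroendocrine genes and of 7 marker lists in each mouse, in summed CPM on linear axes that start at 0; points are mice and lines are the means of 2 mice. Epithelial markers were highest in the *Hsf1* null mice at day 15, goblet and absorptive markers were lowest in the WT mice at day 15, and mast cell markers were higher in all 4 mice at day 15.

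Other enteroendocrine hormones were examined with a list of 18 genes, of which 16 were in the table and 13 were tested. With both genotypes averaged, 7 of the 13 rose from day 0 to day 15 and 0 fell, where 8.04% of all genes were called higher. The median log2 fold change of the 13 was 1.04 and that of all genes 0.02. *Ppy*, which encodes pancreatic polypeptide, a relative of PYY, was at 23.6, 27.0, 27.8 and 20.8 CPM in the 4 mice at day 0 and 96.9 and 50.9 CPM in WT animals and 52.6 and 40.6 CPM in *Hsf1* null animals at day 15. All mice at day 15 were above all mice at day 0, with a log2 fold change of 1.24 (adjusted p = 0.00649). *Penk*, the enkephalin precursor, was at 15.8 to 24.1 CPM at day 0 and 33.3 to 49.7 CPM at day 15, also without overlap (1.04, adjusted p = 0.00945). *Sct*, which encodes secretin, was at 3.04, 7.94, 6.24 and 2.51 CPM at day 0 and at 32.3 and 18.2 CPM in WT animals and 8.37 and 15.8 CPM in *Hsf1* null animals at day 15 (1.84, adjusted p = 0.0119).

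*Sst*, which encodes the inhibitory hormone somatostatin of D cells, was at 10.1, 37.3, 17.9 and 11.1 CPM at day 0 and at 74.7 and 44.3 CPM in WT animals and 26.0 and 35.7 CPM in *Hsf1* null animals at day 15, with overlap between days (1.23, adjusted p = 0.0374). *Cck*, which encodes cholecystokinin, had 68, 3, 8 and 2 counts at day 0 and 105 and 94 counts in WT and 14 and 60 counts in the *Hsf1* null mice at day 15 (2.01, adjusted p = 0.0276). *Ghrl*, the ghrelin gene, had 11, 3, 2 and 1 counts at day 0 and 75, 15, 10 and 86 counts at day 15 in the same order of mice, without overlap between days in CPM. *Pdyn*, the dynorphin precursor, had 1, 0, 17 and 3 counts at day 0 and 26, 25, 6 and 29 counts at day 15. The last 2 genes rose too, at adjusted p = 0.0147 and 0.0172, from few counts. *Sst*, *Penk*, *Pdyn*, *Tac1*, *Gal* and *Npy* are also made by enteric neurons, whose summed markers were at 156 to 231 CPM at day 0 and 231 to 402 CPM at day 15. The part of neurons in the levels of these genes was not tested.

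The number of hormones that rose depended on single mice. It was 1 of 13 without replicate 2 of *Hsf1* null day 0, 3 without replicate 2 of *Hsf1* null day 15, and between 5 and 7 in the other 6 fits that left out a mouse. It was 7 with DESeq2 and 3 (*Sct*, *Ghrl* and *Pdyn*) with libraries scaled to the epithelial sum, where the median was 0.58 and that of all genes -0.48. In WT mice alone 3 of the 13 rose (*Sct*, *Ppy* and *Pdyn*), where 3.47% of all genes were called higher, and in *Hsf1* null mice 1 (*Ghrl*), where 5.3% were. The first count was 0 without replicate 1 or 2 of WT day 0 or replicate 1 of WT day 15, and 1 without replicate 2 of WT day 15 or either *Hsf1* null mouse at day 0. The second was 0 without either *Hsf1* null mouse at day 0 or replicate 2 of *Hsf1* null day 15. Between the genotypes 0 of 13 were called at either day, and the difference between genotypes in the change was called for none. The most abundant gene of the list, *Tac1*, the substance P precursor, was at 32.4 to 74.0 CPM at day 0 and 50.2 to 86.8 CPM at day 15 and was not called.

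**Figure D4:**
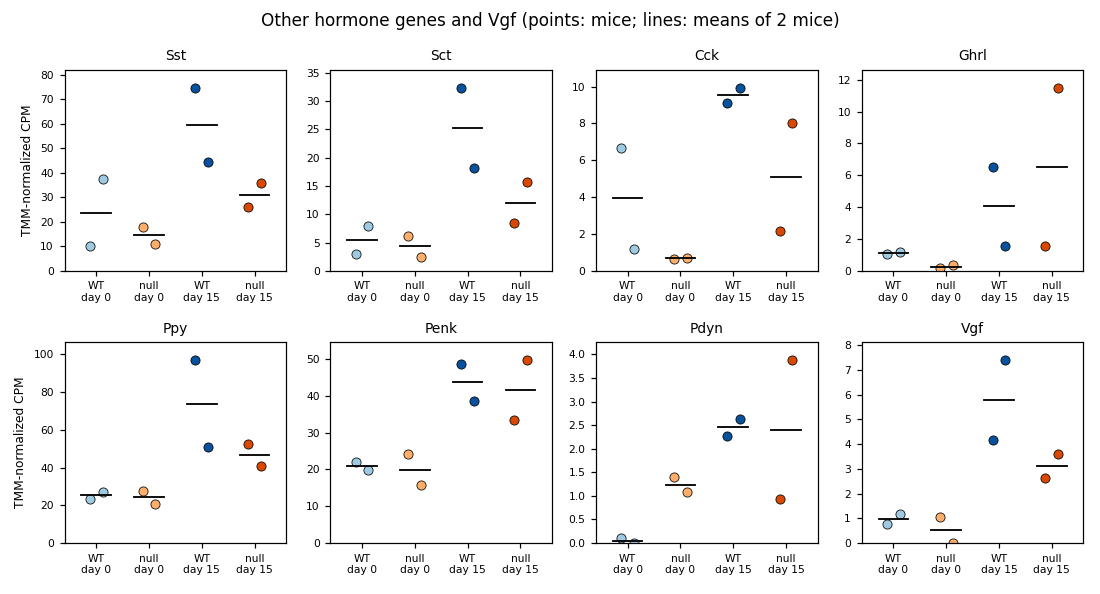
Levels of 7 other hormone genes that rose from day 0 to day 15 as the mean of both genotypes, and of the granule gene *Vgf*, in each mouse, in TMM-normalized CPM on linear axes that start at 0; points are mice and lines are the means of 2 mice. *Ppy*, *Penk*, *Sct*, *Ghrl* and *Vgf* were higher in all 4 mice at day 15 than in all 4 mice at day 0. The days did not overlap for 26.3% of all genes.

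Prohormone processing and granule genes were examined with a list of 24 genes, all tested. In WT mice 0 rose and 4 fell from day 0 to day 15, where 4.27% of all genes were called lower. *Cpe*, which encodes carboxypeptidase E and trims prohormones, was at 94.6 and 101 CPM at day 0 and 55.5 and 36.4 CPM at day 15 (-1.09, adjusted p = 0.0323). *Ptprn2*, a granule membrane protein, was at 55.0 and 73.0 CPM and then at 30.5 and 22.9 CPM (-1.25, adjusted p = 0.0237). *Cadps2*, which primes dense-core granules for release, was at 71.6 and 67.5 CPM and then at 33.6 and 35.8 CPM (-1.01, adjusted p = 0.0307). *Rab3b*, a small GTPase of secretory vesicles, was at 37.0 and 54.4 CPM and then at 9.56 and 9.92 CPM (-2.22, adjusted p = 0.0277). The count that fell was 0 without replicate 2 of either WT group and 2 without replicate 1 of either WT group. DESeq2 called 2 of the 24 higher and 3 lower. In the same WT comparison 7 of 9 smooth muscle and 4 of 9 goblet cell markers fell with edgeR, and 3 of 9 leukocyte markers rose. The part of tissue composition in the levels of these granule genes was not tested.

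Between the genotypes at day 15 1 of the 24, *Rab3b*, differed, at 84.3 and 27.0 CPM in *Hsf1* null animals (-2.51 for WT against *Hsf1* null, adjusted p = 0.0310), a call kept in 3 of the 8 fits that left out a mouse. In *Hsf1* null mice 0 of 24 were called between days with edgeR. In the mean of both genotypes only *Vgf*, a granin-like precursor, rose, from 8, 3, 13 and 0 counts at day 0 to 48 and 70 counts in WT and 17 and 27 counts in the *Hsf1* null mice at day 15 (2.35, adjusted p = 0.0152), a call lost without replicate 1 of WT day 0. *Pcsk2*, the convertase that the product of *Scg5* assists, had 6 to 41 counts per mouse and was not called, nor were *Pcsk1* or the most abundant genes of the list, *Pam*, *Rab3d* and *Vamp2*. The median log2 fold change of the 24 as the mean of both genotypes was 0.00, against 0.02 for all genes. Between the genotypes at day 15 it was -0.52 (20 of the 24 lower in WT mice), against 0.04 for all genes, and 0.02 with libraries scaled to the epithelial sum, where that of all genes was 0.55.

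Serotonin handling was examined with 12 genes, *Tph1* included, of which 10 were tested. *Slc6a4*, the serotonin transporter that clears serotonin into epithelial cells, was at 45.9 and 46.0 CPM in WT animals and 65.7 and 56.7 CPM in *Hsf1* null animals at day 0, and at 3.65 and 0.528 CPM in WT animals and 62.6 and 23.7 CPM in *Hsf1* null animals at day 15. Both WT mice at day 15 were far below all other mice. *Slc6a4* fell in WT mice (-4.41, SE 0.69, adjusted p = 0.0101) in all 8 fits that left out a mouse, and was lower in WT than in the *Hsf1* null mice at day 15 (-4.31, SE 0.68, adjusted p = 0.0202), a call kept in 4 of the 8 fits. The difference between genotypes in the change was -3.90 (SE 0.88, adjusted p = 0.324) with edgeR, which called 0 of the 10 genes there, whereas DESeq2 called 2 lower. *Maob* and *Maoa*, which encode monoamine oxidases that degrade serotonin, fell in WT mice as well. Thus 3 of the 10 genes fell in WT mice and 0 rose, where 4.27% of all genes were called lower. *Maob* was at 27.7 and 29.4 CPM at day 0 and 7.91 and 3.38 CPM at day 15 (-2.32, adjusted p = 0.0122), and *Maoa* at 317 and 408 CPM and then 183 and 157 CPM (-1.09, adjusted p = 0.0405). The count of 3 genes that fell in WT mice was 1 without replicate 2 of either WT group. The call of *Maob* was lost without replicate 2 of either WT group, and that of *Maoa* in 6 of the 8 fits. The absorptive cell markers, given above, were lowest in the same WT mice, and their part in these changes was not tested.

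At day 15 3 of the 10 genes were lower in WT than in *Hsf1* null mice, where 1.91% of all genes were called lower, and they were *Slc6a4*, *Maob* (-1.88, adjusted p = 0.0369) and *Ddc* (-1.48, adjusted p = 0.0461). *Ddc*, which encodes the decarboxylase that completes serotonin synthesis after *Tph1*, was at 36.7 and 23.4 CPM in WT animals and 17.2 and 21.2 CPM in *Hsf1* null animals at day 0, and at 21.6 and 14.3 CPM in WT animals and 43.4 and 56.4 CPM in *Hsf1* null animals at day 15. *Ddc* rose in *Hsf1* null mice (1.39, adjusted p = 0.0305), whereas *Tph1* in the same mice had the lowest levels of all groups. The count of 3 was reached in none of the 8 fits that left out a mouse, and it was lowest without either *Hsf1* null mouse of day 0, replicate 2 of WT day 15 or replicate 1 of *Hsf1* null day 15. The calls of *Ddc* and *Maob* between genotypes were kept in 1 and 2 of the 8 fits, and the call of *Ddc* between days was lost without any 1 of the 4 *Hsf1* null mice. With libraries scaled to the epithelial sum neither difference of *Ddc* was called (-0.97, adjusted p = 0.232, and 0.70, adjusted p = 0.354), but relative to the median of all genes they were -1.52 and 1.32, against -1.51 and 1.34 without the scaling. *Ddc* is also expressed in absorptive epithelium, whose part was not tested. *Spr* and *Qdpr*, the other abundant genes of the list, which make and recycle the cofactor of *Tph1*, were not called.

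Receptors and degradation of the hormones were examined with 25 genes, of which 13 were tested. As the mean of both genotypes 4 fell and 0 rose, where 8.32% of all genes were called lower. The median log2 fold change was -0.89, against 0.02 for all genes. With libraries scaled to the epithelial sum, which lowers all genes, 7 fell. Without that scaling 7 of 9 smooth muscle and 4 of 8 absorptive cell markers also fell, and 5 of 9 leukocyte markers rose. The part of tissue composition in the levels of these receptors was not tested. *Npy1r*, an epithelial receptor of peptide YY, was at 10.3, 16.7, 14.8 and 33.0 CPM in the 4 mice at day 0 and at 3.22 and 1.58 CPM in WT animals and 6.82 and 7.75 CPM in *Hsf1* null animals at day 15 (-2.06, adjusted p = 0.00471). *Htr4*, a serotonin receptor, was at 15.9 to 47.8 CPM at day 0 and 2.96 to 9.92 CPM at day 15 (-2.20, adjusted p = 0.00367). *Sstr1*, a somatostatin receptor, was at 7.14 to 10.1 CPM and then at 2.85 to 4.28 CPM (-1.32, adjusted p = 0.0125). *Npy4r*, the receptor of pancreatic polypeptide, had 26, 15, 17 and 15 counts at day 0 and 10, 2, 1 and 0 counts at day 15 (adjusted p = 0.00885). All 4 genes, named because they were called, were lower in every mouse at day 15 than in every mouse at day 0. The days did not overlap for 26.3% of all genes. Each of the 4 kept its call in all 8 fits that left out a mouse.

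Within genotypes, *Npy1r* (-2.44, adjusted p = 0.0276) and *Htr4* (-2.32, adjusted p = 0.0301) fell in WT mice, and *Htr4* (-2.07, adjusted p = 0.0322), *Npy4r* (adjusted p = 0.0396) and *Dpp4* (-1.14, adjusted p = 0.0306) in *Hsf1* null mice. These were 2 and 3 of the 13 genes, where 4.27% and 6.48% of all genes were called lower. Both counts were 0 in some fits that left out 1 mouse, namely replicate 2 of either WT group for the first, and replicate 2 of *Hsf1* null day 0 or either *Hsf1* null mouse at day 15 for the second. The first was 1 without replicate 1 of either WT group, and the second was 5 without replicate 2 of WT day 15. *Dpp4*, the protease that inactivates GLP-1, was at 46.7 and 62.9 CPM in *Hsf1* null animals at day 0 and at 20.5 and 28.9 CPM at day 15. *Glp2r*, the GLP-2 receptor, was at 5.30 to 21.5 CPM and was not called. *Rxfp4*, the receptor of INSL5, had 7 counts in 1 mouse and 0 to 2 in the other 7 and was not tested. Between the genotypes 0 of 13 genes were called at either day.

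**Figure D5:**
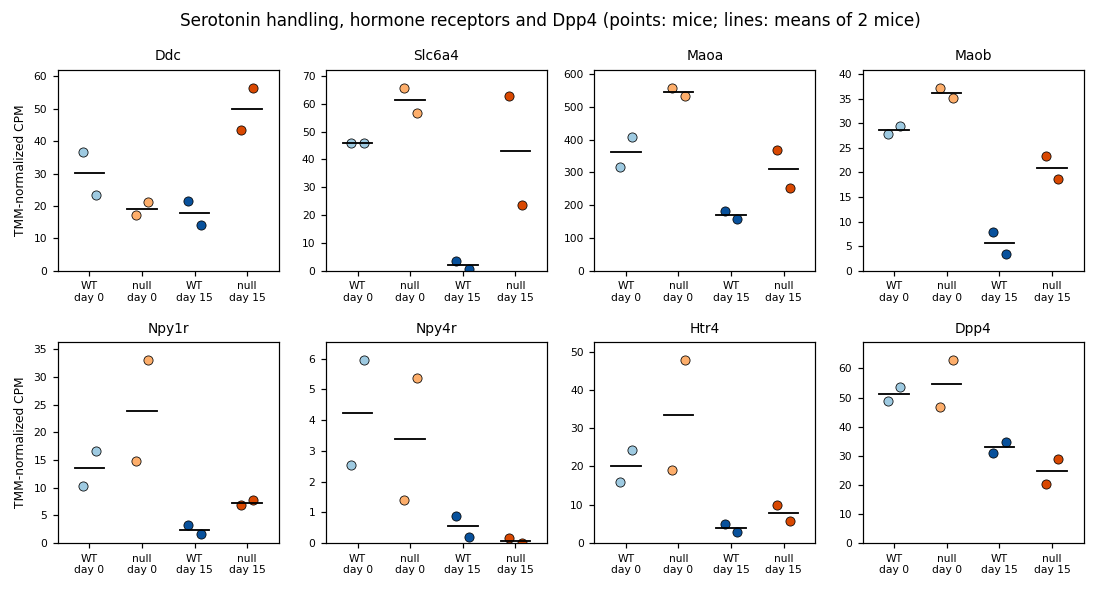
Levels of 4 genes of serotonin handling and of *Npy1r*, *Npy4r*, *Htr4* and *Dpp4* in each mouse, in TMM-normalized CPM on linear axes that start at 0; points are mice and lines are the means of 2 mice. *Slc6a4* was at 3.65 and 0.528 CPM in WT animals at day 15 and at least at 23.7 CPM in all other mice. *Npy1r*, *Npy4r* and *Htr4* were lower in all 4 mice at day 15, where 26.3% of all genes did not overlap between days.

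Sensors of enteroendocrine cells were examined with 19 genes, of which 12 were tested. *Ffar2*, a receptor of short-chain fatty acids on L cells that leukocytes express as well, was at 11.1 and 13.9 CPM in WT animals and 6.40 and 6.82 CPM in *Hsf1* null animals at day 0, and at 12.7 and 17.0 CPM in WT animals and 36.0 and 41.4 CPM in *Hsf1* null animals at day 15. It rose in *Hsf1* null mice (2.55, adjusted p = 0.0123), a call lost without replicate 2 of *Hsf1* null day 0, and as the mean of both genotypes (1.41, adjusted p = 0.00314). It was lower in WT than in the *Hsf1* null mice at day 15 (-1.38, adjusted p = 0.0446), a call kept in 0 of the 8 fits that left out a mouse, and the difference between genotypes in the change was -2.29 (adjusted p = 0.26). Leukocyte markers were at 232 and 566 CPM in the same *Hsf1* null mice and at 862 and 2181 CPM in WT animals at day 15. The part of leukocytes in the level of *Ffar2* was not tested. *Gpr119*, a lipid receptor of L cells, had 7, 1, 15 and 9 counts at day 0 and 1, 3, 0 and 1 counts at day 15 and fell in *Hsf1* null mice (adjusted p = 0.0431) and as the mean of both genotypes (adjusted p = 0.0259). Both calls of *Gpr119* were lost in some fits that left out a mouse, and DESeq2 called 0 sensors lower in *Hsf1* null mice. In the difference between genotypes in the change, DESeq2 called 1 sensor lower and edgeR 0. *Slc5a1*, *Gpr35* and *Ffar4*, the most abundant genes of the list, were not called.

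Transcription factors of the lineage were examined with 23 genes, *Neurod1* included, of which 21 were tested. *Neurog3*, which commits progenitors to the endocrine fate, had 19, 7, 14 and 8 counts at day 0 and 134, 15, 18 and 51 counts at day 15, with overlap in CPM between days, and was not called. *Foxa2*, which acts in several epithelial lineages, was lower in the WT mice at day 15 (11.5 and 7.71 CPM) than in the WT mice at day 0 (21.6 and 37.7 CPM) and in the *Hsf1* null mice at day 15 (35.0 and 26.6 CPM), with log2 fold changes of -1.60 (adjusted p = 0.0311) and -1.68 (adjusted p = 0.0421). These calls were kept in 5 and 3 of the 8 fits that left out a mouse. Averaged over both genotypes, 0 rose and 2 of 21 fell, near the 8.32% of all genes called lower, *St18* (-2.09, adjusted p = 0.0285) with 1 to 25 counts per mouse and *Prox1* (-1.70, adjusted p = 0.0374) with 2 to 60 counts per mouse. Each of these calls was lost in 5 or more of the 8 fits. *Foxa1* and *Mlxipl*, the other abundant genes of the list, were not called.

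Among the genes whose pattern over the 8 mice was most like that of the enteroendocrine genes were *Acot1*, *Hebp2*, *Adgrb2* and *Slc25a29*, with Pearson's r of 0.92, 0.91, 0.90 and 0.88 between their log2 CPM and the mean standardised level of the 8 genes. Of these 4, all except *Hebp2* were at a mean of 3.34 to 5.13 CPM, and the mice share library and tissue composition for all genes.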

How the data were processed

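RNA-seq counts of the distal colon of 8 male mice (2 per group) were analysed, and groups follow genotype and day in the labels. Per the labels, RNA was poly(A) selected, reads were aligned to mm10 with STAR and counts were normalized with DESeq2. The counting program was not given in the sources used here. The authors deposited raw counts of 15859 genes by symbol, each with at least 6 counts in a sample, and a table of scores, each count divided by the DESeq2 size factor of its sample, which served as a check and was not tested.

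Counts were fitted in R 4.3.3 with edgeR 4.0.16 (TMM, quasi-likelihood test, 1 model of the 4 groups, prior degrees of freedom 5.97). Two-sided p-values set each difference against the spread between mice of a group, pooled over the 4 groups and moderated across genes. They were adjusted (Benjamini-Hochberg) over 14371 genes whose mean normalized count exceeded 5. SEs are from the same fit. With 2 mice against 2 an exact permutation test cannot give a p below 0.333, so none was run, and groups of 2 were not examined for outlying samples. The 6 comparisons were between genotypes at each day, between days in each genotype and as the mean of both, and the difference between genotypes in the change.

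The 8 genes and 19 other gene lists were chosen with earlier results of these data known. By rule, names were open besides the 8 to *Hsf1*, to genes of the other lists called in any comparison, to the 3 most abundant of each list, to the 5 genes most like the 8 in pattern (1 of which is not reported here) and to genes of a count of 5 or fewer. Marker lists of other cell types are given mainly as counts. *Neurog3*, *Pcsk1*, *Pcsk2*, *Rxfp4*, *Gal*, *Npy* and the promoters shown were chosen after their values were seen. Of the symbols, 15276 (96.3%) matched GENCODE M21. All 8 genes matched RefSeq promoters. The fit was tested on simulated counts with 200 changed genes. These were well counted, were changed in WT day 15 by more than any of the 8 genes, and were read between genotypes at day 15 only. The power to detect changes of the size seen here was not examined.

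Alternatives were DESeq2 1.42.0, DESeq2 size factors in edgeR, no filter, filterByExpr, no fold threshold, adjusted p under 0.005, the replicate number as a block, thinning all libraries to the size of the smallest, only the groups compared, libraries scaled to 13 epithelial markers, and each mouse left out in turn, where the lone mouse of a group is assumed to vary like the others. A replicate block that exchanged both WT mice of day 0 was added after the data were seen.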

Additional observations from a re-analysis of the deposited data

How the results depend on the processing

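Totals of all genes called and counts of the 8 enteroendocrine genes called moved with the processing, and the cause was not tested beyond what each setting changes. Between genotypes at day 15, 455 genes became 1209 with DESeq2, 0 at adjusted p under 0.005, 6 with only the groups compared, 12 to 873 with a mouse left out and 1314 with the exchanged block, where 1 of the 8 was called (*Pyy*, -1.21, adjusted p = 0.0321). With a mouse left out, 0 to 1 of the 8 were called. At day 0, 0 became 18 with DESeq2, 1 with epithelial scaling and 0 to 17 with a mouse left out. From day 0 to day 15 in WT mice, 1112 became 1739 with DESeq2, 12 at adjusted p under 0.005, 92 to 1336 with a mouse left out and 1856 with the exchanged block, and 0 to 1 of the 8 were called with a mouse left out. In *Hsf1* null mice, 1692 became 0 at adjusted p under 0.005 and 0 to 1891 with a mouse left out. There, 1 of the 8 became 0 at adjusted p under 0.005, thinned or with only the groups compared, 2 with epithelial scaling and 0 to 2 with a mouse left out. As the mean of both genotypes, 2350 became 4284 with no fold threshold, 748 at adjusted p under 0.005 and 1271 to 2534 with a mouse left out, and 0 of the 8 became 2 with no fold threshold or epithelial scaling and 0 to 3 with a mouse left out. For the difference between genotypes, 1 became 130 with DESeq2, 2 with no filter, 0 at adjusted p under 0.005, 18 with epithelial scaling, 0 to 50 with a mouse left out and 54 with the exchanged block.

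With epithelial scaling, genes called were 522 higher and 113 lower between genotypes at day 15 (180 and 275 without it), 182 and 739 between days in WT mice (499 and 613), 134 and 2535 in *Hsf1* null mice (761 and 931; 2669 in all) and 409 and 3118 as the mean of both (1155 and 1195; 3527 in all). The median of all genes moved to 0.55, -0.33, -0.61 and -0.48. Between genotypes at day 15, 12 genes were left without either *Hsf1* null mouse of day 0, 19 without replicate 2 of WT day 15 and 30 without replicate 1 of *Hsf1* null day 15. The 92 in WT mice came without replicate 2 of WT day 15 (133 and 485 without replicates 2 and 1 of WT day 0), the 0 in *Hsf1* null mice and the 1271 of the mean without replicate 2 of *Hsf1* null day 0, and 487 and 361 in *Hsf1* null mice without replicates 1 and 2 of *Hsf1* null day 15.

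Same-numbered mice are different animals, and their deviations from the group means correlated between -0.301 and 0.202 across genes, so the numbers do not pair them. With the replicate block, 343, 0, 868, 1506, 2221 and 2 genes were called in the 6 comparisons, *Scg5* was still called in *Hsf1* null mice (-1.42, adjusted p = 0.0480), and no other of the 8 was called. The exchanged block was tried because replicates of WT day 0 correlated at -0.301 with same-numbered WT mice at day 15.

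Of 21 fold changes of the 8 genes (those given, and *Pyy* and *Insl5* at day 0), 0 changed direction in 394 values under the alternatives, 6 values lost the call and 15 gained it. Of the 27 others, 23 changed sign in some setting, so the 0 holds for the chosen 21 alone and is no measure of how stable the 8 genes were. Of 136 calls in the other lists, 30 were kept with every mouse left out in turn and 106 were lost at least once, and 0 changed direction. The smallest library had 2553348 counts, which limits *Neurod1*, *Gpr119*, *Pdyn* and other genes of few counts.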
